A study of Rattus norvegicus with 9 samples.

Results

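The genes described here are 10 genes of the unfolded protein response and of the amino acid stress response, followed in rat dorsal root ganglia, which hold the cell bodies of sensory neurons. They are Sdf2l1, Creld2, Hyou1, Dnajb9, Edem1, Herpud1, Atf5, Asns, Chac1 and Ppp1r15a. They are 10 of the 10411 genes that the array's annotation names by a single symbol, and every probe set annotated to 1 of them alone was taken, which gave 11 of the 15923 probe sets. Hyou1 had 2 probe sets and each other gene had 1. All 11 lay above the filter on dim probe sets, as did 9520 probe sets in all.

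The study followed painful neuropathy in Sprague-Dawley rats made diabetic with streptozotocin (STZ), which destroys pancreatic beta cells. Normal rats received vehicle, and rats injected with STZ received either vehicle or FK1706, a ligand of immunophilins. Lumbar ganglia were collected after 1, 2 or 3 weeks of dosing. Each group had 1 array per week, and each array held equal amounts of RNA from 5 rats. The age of the rats, the dose of FK1706 and the interval between STZ and dosing are not given in the sources used here, and no normal rats received FK1706. Because rats were pooled, the p-values rest on how far pools differed and say nothing of single rats. With 1 pool per group and week, group differences that changed over the weeks count as spread in the fit of group and week. Fewer cells of a type and less RNA per cell cannot be told apart in such samples.

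The endoplasmic reticulum folds proteins bound for the membrane or for secretion. When unfolded proteins build up there, the sensors ATF6, IRE1 and PERK start the unfolded protein response. ATF6 and the XBP1 factor made through IRE1 switch on chaperones and the machinery that removes misfolded proteins, while PERK phosphorylates the initiation factor eIF2α. The same phosphorylation is made by GCN2 when amino acids run short, and it lets the factor ATF4 be translated, which drives genes for amino acid supply and for recovery of translation. Sensory neurons make large amounts of channel, receptor and peptide proteins in this compartment, and Schwann cells and fibroblasts of the ganglion do so for myelin and matrix.

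The short stretches of promoter below are shown for the motifs they hold, some of which occurred in more than 1 member gene. They come from RefSeq's GRCr8 sequence upstream of annotated gene starts, which held a window for 10 of the 10 genes. The searched motifs were ERSE (CCAAT and CCACG with any 9 bases between them), ERSE-II (ATTGG and CCACG with any 1 base between them) and UPRE (TGACGTGG), to which ATF6 or XBP1 are known to bind, and the ATF4 motif CARE (TGATGNAA). Each was searched on both strands of a window from 250 bases before to 50 bases after the start. Capitals mark the motif. All are written 5′ to 3′ on the gene's strand.
Creld2, ERSE on the opposite strand: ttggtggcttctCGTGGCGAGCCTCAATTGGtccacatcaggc
Hyou1 distal, ERSE-II on the opposite strand: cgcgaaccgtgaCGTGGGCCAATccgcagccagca
Hyou1 proximal, ERSE-II on the opposite strand: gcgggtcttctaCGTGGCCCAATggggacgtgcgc
Herpud1, ERSE-II on the gene's strand: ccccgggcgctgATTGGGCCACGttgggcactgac
Herpud1, CARE on the opposite strand: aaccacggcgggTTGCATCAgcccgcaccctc
Chac1, CARE on the opposite strand: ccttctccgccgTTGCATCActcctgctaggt

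The Creld2 stretch lies at chr7:121789227-121789269 on the plus strand, and its motif covers bases 145 to 127 before the start. The Hyou1 stretches lie at chr8:53602682-53602716 and chr8:53602782-53602816 on the plus strand, with motifs 188 to 178 and 88 to 78 bases before the start. The distal Hyou1 motif overlaps a UPRE (bases 191 to 184 before the start). The Herpud1 stretches lie at chr19:10614809-10614843 and chr19:10614872-10614903 on the minus strand, with motifs 124 to 114 and 184 to 177 bases before the start. The Chac1 stretch lies at chr3:126795952-126795983 on the plus strand, with its motif 167 to 160 bases before the start. Of the 33469 windows of all genes, 0.0657% held an ERSE, 0.0508% an ERSE-II, 0.595% a UPRE and 3.98% a CARE. These matches describe letters only, and 4 of the 10 genes had any of the 4 motifs in their windows, beside 4.66% of all windows. The first share counts genes, which had 11 windows, and the second counts windows. The motifs were chosen with these windows in view, so the shares are not a test.

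Levels of the members below are log2 signals after the arrays had been put on 1 scale by quantile normalization, unless the deposited scale is named. Marker sums are linear signals. The deposited arrays were not on 1 scale. Their trimmed mean signal ran from 361 to 534 and was lowest in week 3. Within each week the normal pool was the brightest and the FK1706 pool the dimmest. For normal, STZ vehicle and FK1706 pools in turn it was 534, 517 and 466 in week 1. It was 485, 423 and 408 in week 2, and 386, 366 and 361 in week 3. The 8 sensory neuron markers on the array all lay above the filter, and their summed signal was between 39541 and 41793 in all 9 arrays. Skeletal muscle markers (7 of 7 tested) summed to 6097 in the week 2 normal pool and to between 2263 and 3983 in the other 8 arrays. That pool also held the lowest value of 15.9% and the highest value of 16.9% of all probe sets tested, the largest of the 9 shares in both cases.

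Diabetes without the drug is the contrast of the STZ vehicle arrays with the normal vehicle arrays. Sdf2l1, a partner of the chaperone BiP in the endoplasmic reticulum, stood lowest against normal rats, at 1.38-fold below them. Creld2, Edem1, Atf5, Chac1, Dnajb9 and Asns had higher means in STZ vehicle rats, by 1.11- to 1.32-fold. Ppp1r15a and Herpud1 had lower means. With limma, 0 of the 11 member probe sets passed at an adjusted p under 0.05, where 0.063% of all probe sets tested did. At an unadjusted p under 0.05 the count was 1 of 11 (Sdf2l1), against 8.71% of all, or 1 lower (4.53% of all) and 0 higher (4.18%). That count depended on single pools, since it was 5 without the week 3 normal pool and 3 without the week 1 normal pool or the week 3 STZ vehicle pool.

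**Figure D1:**
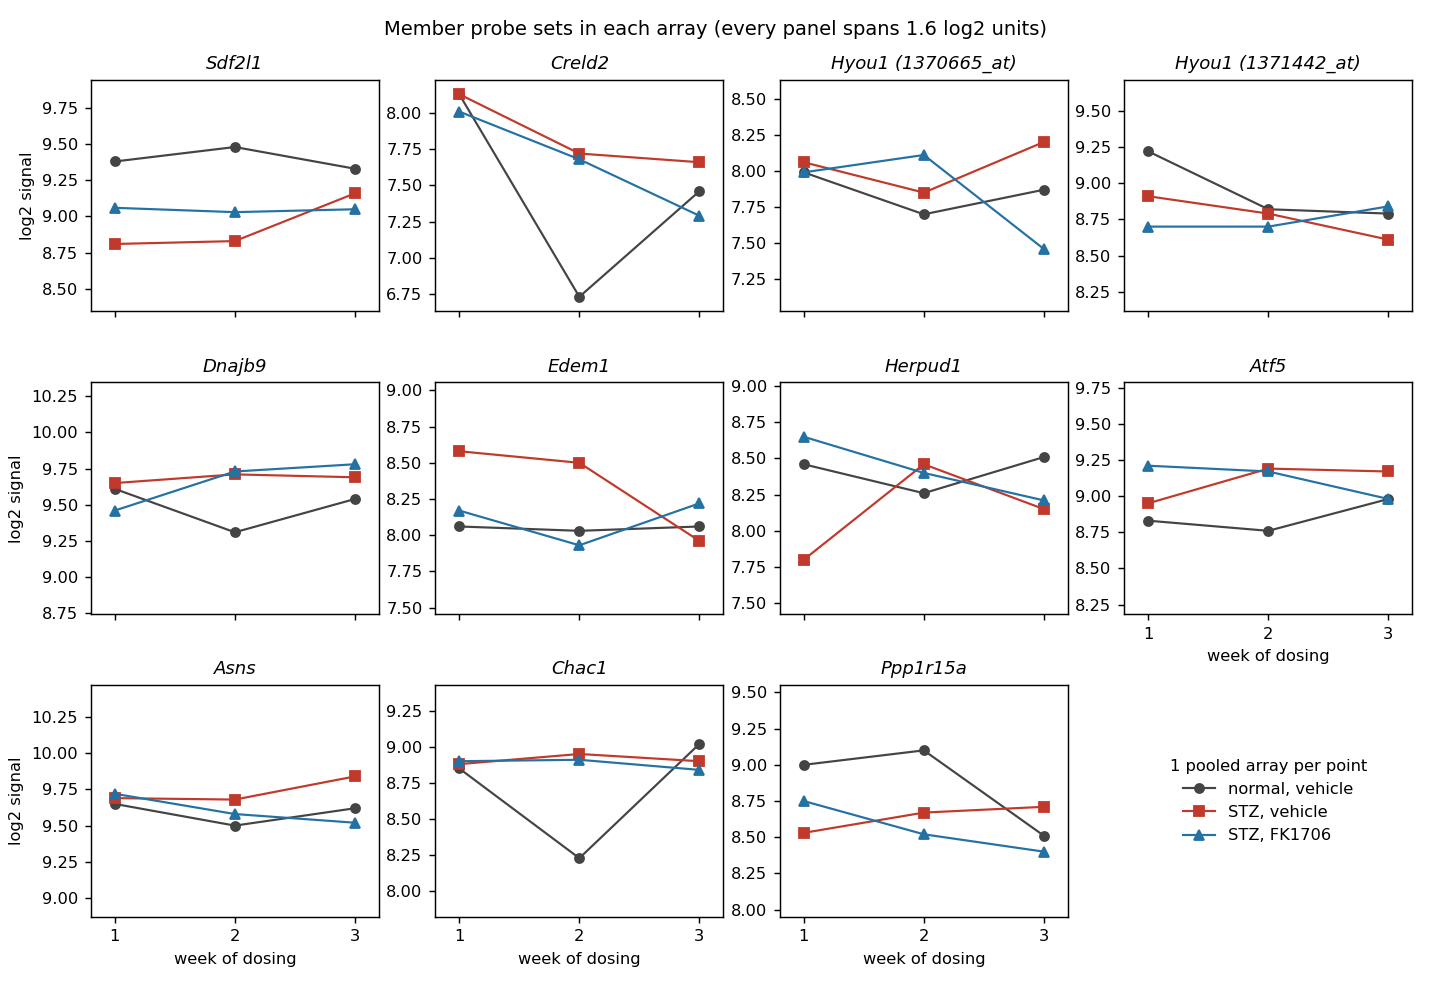
Log2 signal of each member probe set (vertical axis, each panel spanning the same number of log2 units) against week of dosing (horizontal axis). Each point is 1 pooled array, with normal vehicle as circles, STZ vehicle as squares and STZ FK1706 as triangles. Sdf2l1 is the panel in which all normal arrays (9.33 to 9.48) sit above all STZ arrays (8.81 to 9.16), and the week 2 normal array is the lowest point for Creld2 (6.73) and Chac1 (8.23).

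Among the chaperone genes, Sdf2l1 measured 9.38, 9.48 and 9.33 in weeks 1, 2 and 3 of normal rats. The STZ vehicle pools measured 8.81, 8.83 and 9.16, and the FK1706 pools 9.06, 9.03 and 9.05. All 6 STZ arrays thus lay below all 3 normal arrays, a pattern shared by 2.35% of the probe sets tested. On the deposited scale the normal pools read 790, 768 and 550 signal units, the STZ vehicle pools 510, 414 and 461, and the FK1706 pools 554, 464 and 422. There the week 3 normal pool lay just under the week 1 FK1706 pool, and the week 3 arrays were the dimmest as a whole. The difference of STZ vehicle from normal was -0.46 (SE 0.11, 95% interval -0.71 to -0.22), with -0.57, -0.64 and -0.18 in weeks 1, 2 and 3. In limma its unadjusted p was 0.00147 and its adjusted p 0.305, so it did not pass.

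Fibroblast and cartilage or bone markers, whose cells secrete matrix, moved with these groups. The 5 fibroblast markers, all tested, had sums of 24333 to 33344 in normal arrays, 19618 to 24662 in STZ vehicle arrays and 21813 to 26402 in FK1706 arrays, with overlap. Of them 2 passed lower in STZ vehicle rats, and 3 were lower at an unadjusted p under 0.05. The 6 cartilage and bone markers had sums of 2258 to 2778, 1390 to 1803 and 1603 to 2032, so that the normal arrays did not overlap either STZ group. Of these 1 passed and 5 were lower at an unadjusted p under 0.05. No tested marker of the other cell types passed in this comparison. Of 4 neutrophil and mast cell markers tested (5 on the array) 0 passed and 3 were lower at an unadjusted p under 0.05, with summed signals of 1613 to 2233 in normal, 954 to 1776 in STZ vehicle and 1300 to 2631 in FK1706 arrays. Of 5 Schwann cell markers 0 passed and 2 were lower, with sums of 29735 to 30993, 26750 to 30723 and 27836 to 28930. Of the 8 sensory neuron markers 0 passed and 1 was higher at an unadjusted p under 0.05. Beside these counts, 4.53% of all probe sets tested were lower and 4.18% higher at an unadjusted p under 0.05. None of these markers was at 0 in any array. Their part in the Sdf2l1 values, or in those of the other members, was not tested.

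Creld2, a disulfide isomerase-like protein of the endoplasmic reticulum that cells secrete under stress, varied most among the members. The normal pools of weeks 1, 2 and 3 had 8.13, 6.73 and 7.46, the STZ vehicle pools 8.13, 7.72 and 7.66, and the FK1706 pools 8.01, 7.68 and 7.29. The week 2 normal pool was the lowest of the 9, and the groups overlapped. Its range of 1.40 log2 units was larger than that of 98.9% of the probe sets tested. The difference of STZ vehicle from normal was 0.40 (SE 0.213, 95% interval -0.07 to 0.87, limma adjusted p = 0.611). Without the week 2 normal pool it was 0.07.

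Dnajb9 encodes ERdj4, a co-chaperone that holds the sensor IRE1 in check. Normal pools had 9.61, 9.31 and 9.54 over the 3 weeks, STZ vehicle pools 9.65, 9.71 and 9.69, and FK1706 pools 9.46, 9.73 and 9.78. Every STZ vehicle array was above every normal one, but the week 1 arrays lay only 0.05 apart. The difference was 0.20 (SE 0.109, limma adjusted p = 0.613).

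Hyou1 encodes GRP170, a nucleotide exchange factor of BiP, and its 2 probe sets disagreed. On probe set 1370665_at the normal pools had 7.99, 7.70 and 7.87, the STZ vehicle pools 8.06, 7.85 and 8.20, and the FK1706 pools 7.99, 8.11 and 7.46. STZ vehicle differed from normal by 0.18 (SE 0.179). On probe set 1371442_at the same pools had 9.22, 8.82 and 8.79, then 8.91, 8.79 and 8.61, then 8.70, 8.70 and 8.84, with a difference of -0.17 (SE 0.123). The signs were opposite in each of the 3 weeks, the groups overlapped for both probe sets, and neither passed (limma adjusted p = 0.793 and 0.71). No direction can be given for this gene.

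Of the degradation genes, Edem1 encodes a lectin-like protein that draws misfolded glycoproteins out of the folding cycle. Its normal arrays lay within 8.03 to 8.06, whereas the STZ vehicle arrays were at 8.58, 8.50 and 7.96 and the FK1706 arrays at 8.17, 7.93 and 8.22 in weeks 1, 2 and 3. The STZ vehicle pools of weeks 1 and 2 were the highest of all 9 and that of week 3 was among the lowest. The difference was 0.30 (SE 0.159, limma adjusted p = 0.611), made of 0.52, 0.47 and -0.10.

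Herpud1 encodes a membrane protein of the complex that hands misfolded proteins to the proteasome. Its levels by week were 8.46, 8.26 and 8.51 in normal pools, 7.80, 8.46 and 8.15 in STZ vehicle pools and 8.65, 8.40 and 8.21 in FK1706 pools. The week 1 STZ vehicle pool was its lowest array and the week 1 FK1706 pool its highest. The difference of STZ vehicle from normal was -0.28 (SE 0.178, limma adjusted p = 0.676), with signs that differed between weeks (-0.67, 0.20 and -0.36).

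Among the amino acid and integrated stress genes, Atf5 encodes a transcription factor translated under eIF2α phosphorylation. Its levels by week were 8.83, 8.76 and 8.98 in normal pools, 8.95, 9.19 and 9.17 in STZ vehicle pools and 9.21, 9.17 and 8.98 in FK1706 pools. The normal pools of weeks 1 and 2 were the lowest of the 9. The difference of STZ vehicle from normal was 0.25 (SE 0.115, 95% interval -0.01 to 0.50), with 0.11, 0.44 and 0.19 over the weeks, and it did not pass (limma adjusted p = 0.58).

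Asns encodes asparagine synthetase, a target of ATF4. It varied least of the members, from 9.50 to 9.84 over all 9 arrays. Normal pools had 9.65, 9.50 and 9.62, STZ vehicle pools 9.69, 9.68 and 9.84, and FK1706 pools 9.72, 9.58 and 9.52. Every STZ vehicle array was above every normal array, with the lowest STZ vehicle array at 9.68 and the highest normal array at 9.65. The difference of the group means was 0.15 (SE 0.0909, 95% interval -0.05 to 0.35, limma adjusted p = 0.657).

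Chac1, an enzyme that breaks down glutathione and a target of ATF4, had 8 of its 9 arrays between 8.84 and 9.02. Normal pools had 8.85, 8.23 and 9.02, STZ vehicle pools 8.88, 8.95 and 8.90, and FK1706 pools 8.90, 8.91 and 8.84, so the exception was the week 2 normal pool. The difference of STZ vehicle from normal was 0.21 (SE 0.159, limma adjusted p = 0.722), made of 0.03, 0.72 and -0.12. Without the week 2 normal pool it was -0.04.

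Ppp1r15a encodes GADD34, which brings a phosphatase to eIF2α and so lets translation resume. Normal pools had 9.0, 9.10 and 8.51 over the weeks, STZ vehicle pools 8.53, 8.67 and 8.71, and FK1706 pools 8.75, 8.52 and 8.40. The normal pools of weeks 1 and 2 were its highest arrays, and that of week 3 lay among the STZ arrays. The difference of STZ vehicle from normal was -0.23 (SE 0.142, limma adjusted p = 0.657), with -0.46, -0.43 and 0.20 in weeks 1, 2 and 3.

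Without a model, 2 of the 11 probe sets (Dnajb9 and Asns) had every STZ vehicle array above every normal array, against 6.17% of all probe sets tested, and 1 (Sdf2l1) had every one below, against 6.63%. On the deposited scale the groups overlapped for Dnajb9, with 640 to 925 signal units in normal and 672 to 941 in STZ vehicle pools. They also overlapped for Asns, with 678 to 955 and 739 to 969, where week 2 was higher in the normal pool (780 against 768). The log2 differences there were 0.10 and 0.04, beside a median of -0.10 over all probe sets tested. In all 3 weeks the sign was positive for 5 probe sets (Creld2, Hyou1 1370665_at, Dnajb9, Atf5 and Asns), against 15.4% of all. For Creld2 the week 1 pools tied at the printed precision (8.13 in both), and on the deposited scale the normal pool was the higher (317 against 302). The week 2 normal pool was likewise the higher there for Hyou1 1370665_at (205.5 against 199.3). The sign was negative for 2 (Sdf2l1 and Hyou1 1371442_at), against 15.3%. The median difference of the members was 0.18, the value of Hyou1 1370665_at, beside 0.00 over all probe sets tested. By week, the median of the members was 0.03, 0.20 and 0.16. The week 2 value rests on the normal pool that was lowest for 5 of the 11 probe sets (Creld2, Dnajb9, Atf5, Asns and Chac1) and highest for 2 (Sdf2l1 and Ppp1r15a), and in which muscle markers were highest. The part of muscle RNA in these values was not tested.

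**Figure D2:**
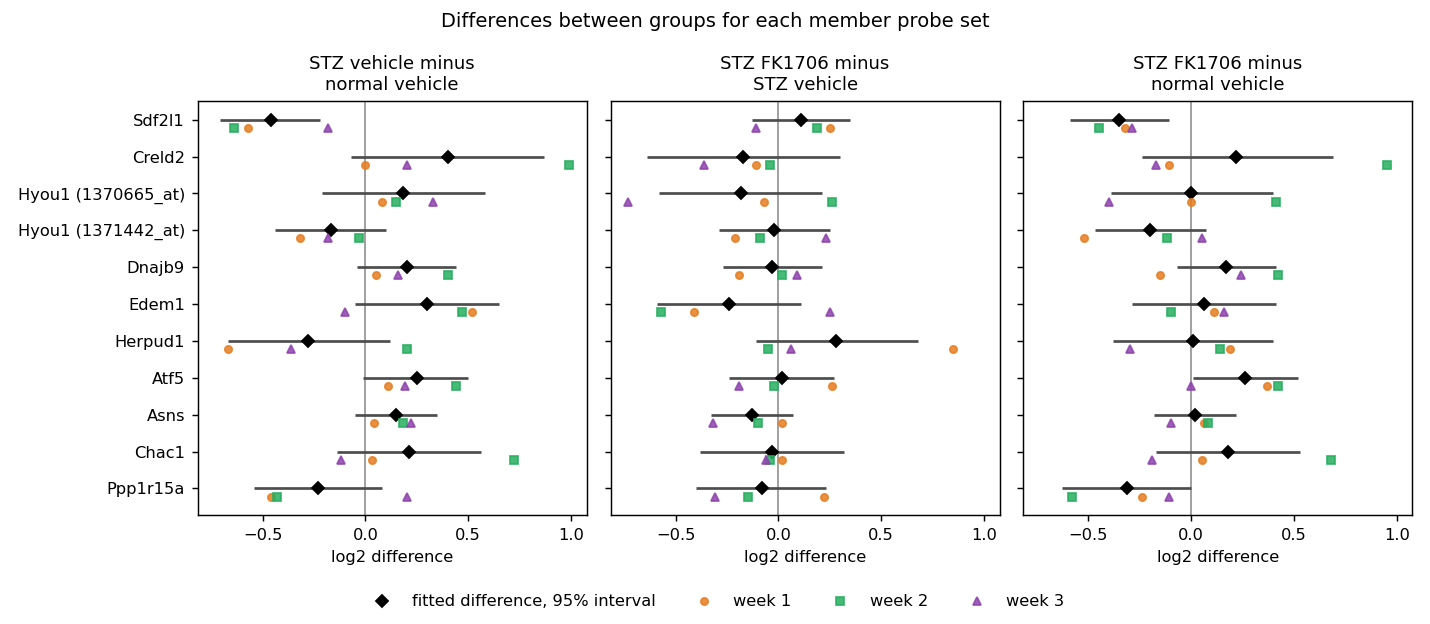
Log2 difference between groups (horizontal axis) for each member probe set (vertical axis) in the 3 group comparisons. Diamonds with bars are the limma estimates with 95% intervals, not adjusted for multiple tests, and the small symbols are the differences within week 1, 2 and 3, each between 2 pools. For STZ vehicle minus normal vehicle, Sdf2l1 is the 1 member with an interval that leaves out 0 (-0.71 to -0.22), and the week 2 points of Creld2 (0.99) and Chac1 (0.72) lie far to the right of their other weeks.

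The effect of the drug in diabetic rats is the contrast of the FK1706 arrays with the STZ vehicle arrays. No member passed in limma (0 of 11, beside 0% of all probe sets tested), and 0 of 11 had an unadjusted p under 0.05, against 3.38% of all, or 1 of 11 without the week 2 or week 3 STZ vehicle pool or the week 3 FK1706 pool. The largest differences were those of Herpud1 at 0.28 (SE 0.178) and Edem1 at -0.24 (SE 0.159), with an adjusted p of 0.999 for each. That of Herpud1 came from week 1 (0.85, then -0.05 and 0.06), in which the STZ vehicle pool was its lowest array. For Edem1 the values were -0.41, -0.57 and 0.25, again with opposite signs.

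Sdf2l1 had a difference of 0.11 (SE 0.11, 95% interval -0.13 to 0.35) from STZ vehicle, with 0.25, 0.19 and -0.11 in weeks 1, 2 and 3. Asns had -0.13, Creld2 -0.17 and Ppp1r15a -0.08. Dnajb9 (-0.03), Chac1 (-0.03) and Atf5 (0.02) had differences of at most 0.03 in size, with 95% intervals of -0.27 to 0.21, -0.38 to 0.32 and -0.24 to 0.27. Hyou1 had -0.18 on 1370665_at and -0.02 on 1371442_at. The groups overlapped for all 11, where 3.3% of all probe sets tested had every FK1706 array above and 3.53% every one below. Creld2 was the 1 member lower in all 3 weeks (-0.11, -0.04 and -0.36), a pattern of 11.8% of all, and 0 members were higher in all 3, a pattern of 12% of all. The median was -0.03 for the members and 0.00 for all.

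Setting the FK1706 arrays against the normal vehicle arrays joins both changes, and it shares the normal arrays with the first comparison and the FK1706 arrays with the second. No member passed in limma (0 of 11, beside 0% of all). At an unadjusted p under 0.05 there were 3 of 11, against 8.16% of all, with 1 higher (3.72% of all) and 2 lower (4.44%). The count varied with the pools and settings. It was 1 without the week 2 normal, FK1706 or STZ vehicle pool, and 0 without all 3. The STZ vehicle pool is not part of this difference and enters through the estimate of the spread. The count was 2 without the week 1 normal pool or the week 3 STZ vehicle pool. It was also 2 with trimmed mean scaling and with no filter. Atf5 and Ppp1r15a lay near the threshold (limma unadjusted p = 0.0433 and 0.0499). Sdf2l1 had -0.35 (SE 0.11, 95% interval -0.59 to -0.11, adjusted p = 0.452), with -0.32, -0.45 and -0.29 over the weeks, beside -0.46 in STZ vehicle rats. Atf5 had 0.26 (SE 0.115, adjusted p = 0.599), beside 0.25, with 0.37, 0.42 and 0.00 over the weeks, and its week 3 pools were both at 8.98.

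Ppp1r15a was lower in FK1706 rats than in normal rats by a difference of -0.31 (SE 0.142, adjusted p = 0.61), with -0.24, -0.58 and -0.11. Creld2 had 0.22, Chac1 0.18, Dnajb9 0.17, Edem1 0.06, Asns 0.02 and Herpud1 0.01, and Hyou1 had 0.00 and -0.20. Every FK1706 array was above every normal array for 1 of 11 probe sets (Atf5, against 5.91% of all) and below for 1 (Sdf2l1, against 5.99%), Atf5 by under 0.01 in week 3. For Atf5 the groups overlapped on the deposited scale, with 403 to 615 signal units in FK1706 and 430 to 537 in normal pools. Week 3 was lower in the FK1706 pool there (403 against 430). The log2 difference there was 0.09, beside a median of -0.17 over all probe sets tested. The sign was the same in all 3 weeks for 1 higher member (Atf5, against 14% of all) and 2 lower members (Sdf2l1 and Ppp1r15a, against 13.9%). The median was 0.02 for the members. Without the week 2 normal pool Creld2 had -0.11 and Chac1 -0.07.

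Across weeks, with group as a block, Creld2 was the member with the lowest p. Its means over the groups were 8.09, 7.38 and 7.47 in weeks 1, 2 and 3. Each week 1 array (8.01 to 8.13) was above each array of weeks 2 and 3, which reached 7.72. Such a gap was seen in 5.16% of all probe sets for week 2 below week 1 and in 9.4% for week 3 below week 1, and Creld2 was the 1 member in both. The difference of week 2 from week 1 was -0.71 (SE 0.213), with -1.40 in normal, -0.41 in STZ vehicle and -0.33 in FK1706 rats. That of week 3 from week 1 was -0.62 (SE 0.213), with -0.67, -0.47 and -0.72. Neither passed in limma (adjusted p = 0.758 and 0.268), nor did the moderated F test over weeks (adjusted p = 0.336), which 0.0525% of all probe sets passed.

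In week 3 against week 1, 0 of 11 members passed (0.021% of all) and 1 of 11, Creld2, had an unadjusted p under 0.05 (12.8% of all). That count was 0 without the week 1 normal pool, and 2 without the week 3 STZ vehicle pool or the week 1 FK1706 pool. The other 9 genes lay between -0.22 (Ppp1r15a) and 0.10 (Dnajb9) in that comparison. In week 2 against week 1 (0% of all passed) and in week 3 against week 2 (0.0105% passed) 0 members passed, with 1 of 11 (Creld2, against 5.74%) and 0 of 11 (against 10.2%) at an unadjusted p under 0.05. On the deposited scale all 11 probe sets were lower in week 3 than in week 1 and passed, by 0.34 to 0.94 in size. The median of all probe sets tested was -0.43 there and 6811 of the 9520 passed, so these values do not set the members apart. The cause of the lower signal of the week 3 arrays was not tested.

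A linear week term per group asked whether a group difference grew or shrank. Of the 11 members 0 passed for any pair of groups, beside 0% of all probe sets tested each time, and 0 had an unadjusted p under 0.05, against 4.12% for STZ vehicle with normal, 3.52% for FK1706 with STZ vehicle and 5.14% for FK1706 with normal. The lowest p was that of Ppp1r15a, for which the difference of STZ vehicle from normal changed by 0.33 per week (SE 0.157, limma adjusted p = 0.999). Herpud1 had -0.40 per week for FK1706 against STZ vehicle (SE 0.201, limma adjusted p = 0.999).

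The members did not share 1 pattern over the 9 arrays. The correlation of each endoplasmic reticulum probe set with the mean of the others ran from -0.50 for Sdf2l1 to 0.69 for Creld2, given as a description over 9 arrays that share groups, weeks and normalization. For the amino acid and integrated stress genes it ran from -0.47 for Ppp1r15a to 0.75 for Asns. Herpud1 and Hyou1 share an ERSE-II in the promoter stretches printed above. Their correlations with the mean of the other endoplasmic reticulum probe sets were -0.17 (Herpud1), 0.08 (Hyou1 1370665_at) and 0.24 (Hyou1 1371442_at). These values do not compare Herpud1 with Hyou1. Herpud1 and Chac1, which share a CARE, had their lowest values in different pools. Whether genes with a shared motif had a shared pattern was not tested. The member with the largest range was Creld2, and 7 of the other probe sets ranged over 0.61 to 0.85 log2 units, beside a median of 0.47 for all probe sets tested.

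**Figure D3:**
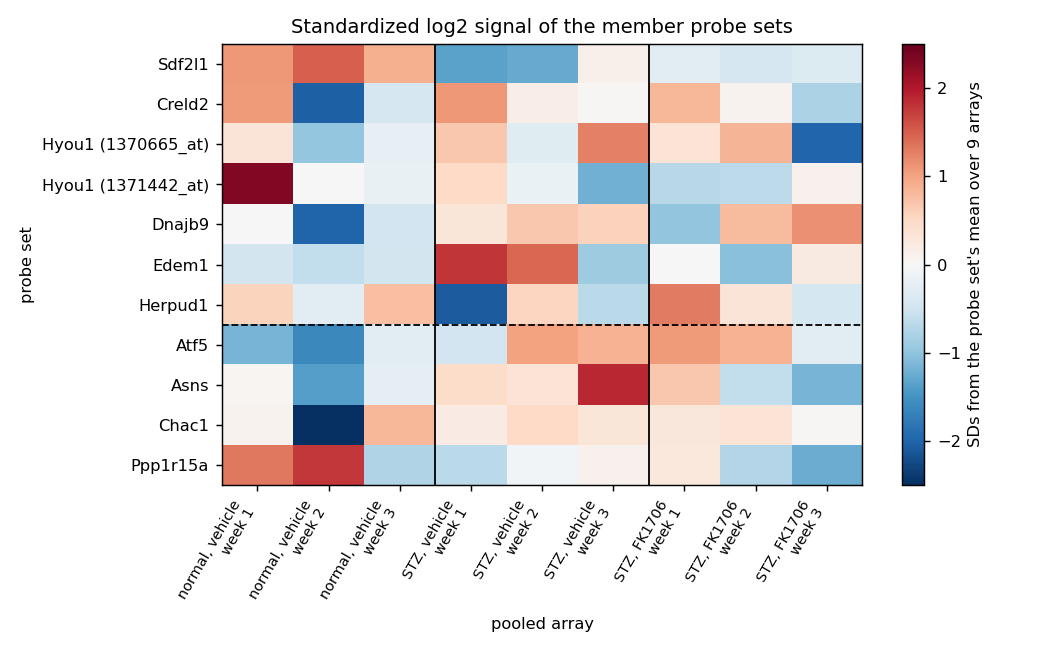
Log2 signal of each member probe set (vertical axis) in each pooled array (horizontal axis), in SDs from that probe set's own mean over 9 arrays, red above and blue below. Solid lines part the 3 groups, and the dashed line parts the endoplasmic reticulum genes (top) from the amino acid and integrated stress genes. The week 2 normal column holds the deepest blue for 5 of the 11 rows and the deepest red for 2 (Sdf2l1 and Ppp1r15a).

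The genes whose values over the 9 arrays were most like the mean of the endoplasmic reticulum members were Dynlrb1 and Skil (r = 0.95 each), Rnd3 and Rnf149 (0.93 each) and Rai14 (0.92). Those most like the mean of the amino acid and integrated stress members were Clk4 (r = 0.94), Tpra1 (0.91), Gap43 (0.90), Fads3 and Anapc4 (0.89 each). They were picked as the highest of 6989 genes, so such values carry no test.

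Other genes of the unfolded protein response are given for comparison, with 43 of 47 on the array tested. In STZ vehicle against normal, 0 of 43 passed in limma, and at an unadjusted p under 0.05 there were 2 higher and 1 lower, against 3.91% and 4.64% of all genes. Their median was -0.02, beside 0.00 for all genes. Erp29, a chaperone of secretory proteins, had -0.45 (SE 0.122, adjusted p = 0.341), with -0.31, -0.31 and -0.71 over the weeks. Ero1a, an oxidase that forms disulfide bonds, had 0.27, Sil1, an exchange factor of BiP, had 0.32 and Ppib, a cyclophilin of the endoplasmic reticulum, had -0.16.

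In FK1706 against STZ vehicle 0 of those 43 genes passed in limma, 0 had an unadjusted p under 0.05 (1.39% of all genes higher, 1.73% lower), and the median was -0.01. Sil1 had -0.26, Dnajb11, a co-chaperone of BiP, 0.25, the stress-induced secreted factor Manf 0.21 and Tmbim6 -0.07. In FK1706 against normal 0 passed, and the unadjusted p was under 0.05 for 1 higher gene (3.53% of all genes) and 3 lower genes (4.42%), with Ero1a at 0.34, Erp29 at -0.35, the oxidase gene Ero1b at -0.32 and the disulfide isomerase gene Txndc5 at -0.21. In week 3 against week 1, 0 passed, the unadjusted p was under 0.05 for 1 higher gene (6.47% of all genes) and 3 lower genes (6.12%), and 32 of 43 values were negative, as were 51.1% of all genes, with a median of -0.05 beside 0.00 for all genes. Erp44, which retains client proteins by disulfide bonds, had -0.37, Atf6b -0.40, the isomerase gene Pdia6 -0.16 and the translocon gene Sec61b 0.26.

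Of the other amino acid and integrated stress response genes, 36 of 47 on the array were tested. In STZ vehicle against normal 0 of 36 passed in limma, the unadjusted p was under 0.05 for 3 higher genes (3.91% of all genes) and 1 lower gene (4.64%), and the median was 0.00, as for all genes. Aldh18a1, which starts proline synthesis, had -0.32, the tryptophan tRNA synthetase gene Wars1 0.24, the glutamine transporter gene Slc38a2 0.26 and Psph, the last enzyme of serine synthesis, 0.36. In FK1706 against STZ vehicle 0 passed, with an unadjusted p under 0.05 for 1 higher gene (1.39% of all genes) and 1 lower gene (1.73%), and a median of 0.00. Eif2s1, which encodes eIF2α itself, had -0.23, the cationic amino acid transporter gene Slc7a1 0.25, Ddit3, which encodes the stress factor CHOP, -0.25 and Psph -0.31.

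In FK1706 against normal 0 of those 36 genes passed in limma, with an unadjusted p under 0.05 for 2 higher genes (3.53% of all genes) and 3 lower genes (4.42%), and a median of -0.02. Ddit4, an inhibitor of TORC1 signalling induced by stress, had 0.46 (SE 0.124, adjusted p = 0.343), with 0.24, 0.86 and 0.28, of which the second compares with the week 2 normal pool. Slc38a2 had 0.31, Aldh18a1 -0.27 and the asparagine tRNA synthetase gene Nars1 -0.16. In week 3 against week 1, 0 passed, with an unadjusted p under 0.05 for 1 higher gene (6.47% of all genes) and 3 lower genes (6.12%). The median was -0.04, and 24 of 36 values were negative, beside 51.1% of all genes. The glycine tRNA synthetase gene Gars1 had 0.25, the serine synthesis gene Psat1 -0.44, the alanine tRNA synthetase gene Aars1 -0.18 and Nars1 -0.17.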

How the data were processed

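Rat lumbar dorsal root ganglia were measured on 9 arrays, 1 pool of 5 rats per group and week. Each deposited value is a linear intensity of 1 probe set from MAS5, per the submitters' processing notes, which state no version. Detection calls were not used here. Arrays were quantile normalized over all probe sets, and log2 was taken after adding 18.4 signal units, the 10th percentile of the deposited values. This offset makes differences of dim probe sets smaller. The 57 control probe sets were left out after these steps. The 9520 probe sets whose mean reached the 40th percentile were tested. Symbols come from the platform annotation. Of 12783 probe sets with 1 symbol, 12748 matched the GRCr8 gene table by Entrez identifier, and 0 symbols changed.

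The limma package (3.58.1, under R 4.3.3) fitted group and week to all 9 arrays at once, with trended eBayes variances and 4 residual degrees of freedom. Adding a linear term per group left 2. Tests were two-sided, with Benjamini-Hochberg adjustment over all probe sets tested. Week was a block because each group was sampled once per week. With group means removed, the correlation between same-week arrays lay between 0.00 and 0.32. For the lists, each of 6989 genes was taken by its brightest probe set. The fits were also run on simulated data with independent noise and no week effect, and no result given here rests on them. Alternatives covered scale, offset, filter, prior, block, 1 probe set per gene, and each array and week left out.

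Members and lists were chosen with earlier results of these data known, and the promoter motifs with the promoter windows in view. Every member probe set is named. From each list up to 4 genes with the largest moderated t per comparison are named, and as most alike the 5 genes with the highest correlation.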

Additional observations from a re-analysis of the deposited data

How the results depend on the processing

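The number of members that passed was 0 in all 3 group comparisons under every alternative run. For week 3 against week 1 it was 0 except on the deposited scale, where it was 11, because every array of week 3 is dimmer there (6811 probe sets passed in all). Sdf2l1 stayed lower in STZ vehicle than in normal rats under every alternative. When an array or a week was left out it ranged from -0.61 to -0.37 (limma unadjusted p between 0.000361 and 0.0227). Its lowest adjusted p in limma, 0.0839, was on the deposited scale, where its difference was -0.57. There the STZ vehicle arrays were dimmer than the normal arrays of the same week, and the median of all probe sets tested was -0.10. Creld2 stayed higher in that comparison but moved from 0.07 to 0.60. With no replicate block, that is with week left out of the model, 1 probe set passed in STZ vehicle against normal, and 0 members did.

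The total that passed in STZ vehicle against normal was 12 on the deposited scale, 0 with no filter, 0 with a prior without a trend and 0 to 11 when an array or a week was left out. In FK1706 against normal it was 89 on the deposited scale, 1 with trimmed mean scaling, 2 with a filter at the 60th percentile, 1 with 1 probe set per gene and 0 to 2 with an array or a week left out. In week 3 against week 1 it was 0 with no filter, 1 with a filter at the 60th percentile, 1 with 1 probe set per gene, 0 with a prior without a trend and 0 to 14 with an array or a week left out. The filter at the 60th percentile left 7 members. The cause of the other changes was not tested.

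Of 882 recomputed member values, 63 changed sign, in 22 of 44 results, all of which had not passed. On the deposited scale these were, in FK1706 against STZ vehicle, Atf5 (-0.05). In FK1706 against normal they were Hyou1 1370665_at (-0.15), Dnajb9 (-0.01), Edem1 (-0.11), Herpud1 (-0.16) and Asns (-0.16), beside a median of all probe sets of -0.17. In week 3 against week 1 they were Sdf2l1 (-0.34), Dnajb9 (-0.35), Atf5 (-0.38) and Chac1 (-0.38), beside a median of -0.43. With trimmed mean scaling Herpud1 had 0.03 there.

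When an array or a week was left out, Chac1 ranged from -0.05 to 0.38 in STZ vehicle against normal. Others kept their sign there but moved by over 1.5 times, with ranges of 0.01 to 0.30 (Hyou1 1370665_at), -0.25 to -0.06 (Hyou1 1371442_at), 0.09 to 0.32 (Dnajb9), 0.17 to 0.52 (Edem1), -0.51 to -0.04 (Herpud1), 0.15 to 0.34 (Atf5), 0.08 to 0.21 (Asns) and -0.45 to -0.10 (Ppp1r15a). Herpud1 had -0.04 without the week 1 STZ vehicle pool and Ppp1r15a -0.10 without the same pool. In FK1706 against STZ vehicle the ranges were -0.40 to 0.09 (Hyou1 1370665_at), -0.15 to 0.11 (Hyou1 1371442_at), -0.10 to 0.09 (Dnajb9), -0.11 to 0.13 (Atf5), -0.15 to 0.10 (Chac1) and -0.23 to 0.08 (Ppp1r15a). In FK1706 against normal they were -0.14 to 0.42 (Creld2), -0.21 to 0.24 (Hyou1 1370665_at), -0.09 to 0.18 (Edem1), -0.18 to 0.17 (Herpud1), -0.03 to 0.09 (Asns) and -0.07 to 0.36 (Chac1). In week 3 against week 1 they were -0.03 to 0.18 (Sdf2l1), -0.34 to 0.07 (Hyou1 1370665_at), -0.02 to 0.21 (Dnajb9), -0.34 to 0.03 (Edem1), -0.25 to 0.17 (Herpud1), -0.04 to 0.17 (Atf5), -0.09 to 0.05 (Asns) and -0.13 to 0.15 (Chac1).

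The number of pools limits all of these values. With 1 pool per group and week, a value of 1 week has no replicate.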
